A study of Mus musculus with 54 samples.

Results

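The genes described here encode 10 subunits of the BAF (BRG1- or BRM-associated factor) family of chromatin remodelling complexes, namely Smarca4, Smarca2, Arid1a, Smarcc1, Smarcc2, Smarcb1, Smarcd1, Smarce1, Dpf2 and Brd9. Accessible regions were assigned to them from 1 merged list of 113737 ATAC-seq peaks when the centre of a peak was at most 50 kb away from any start of transcription (TSS) that GENCODE M21 gives for a member (GRCm38). This gave 90 peaks. Of these, 17 lay within 1 kb of a TSS of the member itself (TSS peaks), 51 lay more than 1 kb from every annotated TSS (distal peaks), and 22 lay within 1 kb of the TSS of another gene only.

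In ATAC-seq a transposase inserts sequencing adapters where DNA is accessible. It was applied to 54 samples in 24 groups. All were ZHBTc4 mouse embryonic stem (ES) cells, in which doxycycline (dox) switches off Pou5f1, the gene of OCT4. They carried the rescue protein mCherry-OCT4-AID, which auxin (indole-3-acetic acid, IAA) degrades through the plant receptor TIR1, and the cell cycle reporter YPet-MD. Every group was kept in dox at 1 µg/ml, in serum with LIF, CHIR99021 and PD184352. The cell cycle set (dox for 26 hr) held cells sorted into early G1, late G1, S and late S/G2 (EG1, LG1, S, SG2), with 500 nM IAA for 2 hr or without it, in 3 replicates each except SG2 with 2. The washout set (dox for 31 hr) held the same 4 phases with or without 2.5 hr of IAA followed by 4.5 hr of washout, in 2 replicates. The time course (dox for 34 hr) held unsorted cells without IAA or with IAA for 30 min, 1, 2, 3, 4, 6 or 10 hr, in 2 replicates. The fusion protein was driven by the PGK promoter at a low level in 1 engineered line, so untreated cells are not wild-type ES cells. The list analysed here gives only the start and end of each merged region, so no value belongs to a sample, no groups could be compared and depth is unknown. The list joins overlapping regions of several peak sets, so their number and widths can depend on how many sets were merged and on their depth.

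BAF complexes use the energy of ATP to slide or eject nucleosomes and so open regulatory DNA. Each complex holds a single ATPase, BRG1 (Smarca4) or BRM (Smarca2), on a core of scaffold subunits. Canonical BAF, PBAF and the non-canonical ncBAF differ in their other subunits. In ES cells the complex is known to be built on BRG1 and on SMARCC1, whereas BRM and SMARCC2 become more prominent upon differentiation, and OCT4 is known to bring BRG1 to its target sites.

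As a check of the cell type, all 7 ES markers examined (Pou5f1, Sox2, Nanog, Zfp42, Esrrb, Klf4, Tfcp2l1) had a TSS peak, against 70.8% of protein-coding genes. Pou5f1 was counted although dox switches it off. The peak reached 1000 bp at 5 of the 7 (Nanog 254 bp and Zfp42 621 bp did not), beside 73.0% of genes with a TSS peak. Their median was 12 distal peaks, from 3 (Klf4) to 26 (Esrrb). Of 7 markers of other tissues, 4 had a TSS peak, none of 1000 bp or more, and Alb, Ins2 and Myh6 had none. All 7 of the latter had distal peaks, with a median of 6, from 2 (Alb) to 8 (Ttn). Protein-coding genes with a TSS peak had a median of 5. The ranges overlap, so the number of distal peaks did not separate the ES markers from the others.

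The promoter sequences below cover 250 bases before and the first 30 bases of each transcript (RefSeq, GRCm38.p6). They show the ATPase pair, the scaffold pair and the core subunit Smarcb1, chosen by matches to the NRF1 consensus, 1 of 14 motifs searched. Smarca4, Smarcc1 and Smarcb1 held it, and Smarca2 and Smarcc2 did not. It was also absent from the promoters of Arid1a, Smarcd1, Dpf2 and Brd9, which are not shown. Capitals mark matches to GCATGCGC (NRF1), to GGGNGTGGC (KLF, in Smarcc1) or to the CTCF consensus with up to 1 mismatch (in Smarcc2), each searched on both strands.
Smarca4 promoter, chr9:21615919-21616198, forward strand: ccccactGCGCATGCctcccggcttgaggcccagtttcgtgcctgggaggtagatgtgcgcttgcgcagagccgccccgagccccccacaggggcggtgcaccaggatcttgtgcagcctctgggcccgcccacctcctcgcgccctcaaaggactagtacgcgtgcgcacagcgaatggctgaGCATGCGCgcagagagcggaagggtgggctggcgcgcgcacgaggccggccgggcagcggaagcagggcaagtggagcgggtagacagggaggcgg
Smarca2 promoter, chr19:26604910-26605189, forward strand: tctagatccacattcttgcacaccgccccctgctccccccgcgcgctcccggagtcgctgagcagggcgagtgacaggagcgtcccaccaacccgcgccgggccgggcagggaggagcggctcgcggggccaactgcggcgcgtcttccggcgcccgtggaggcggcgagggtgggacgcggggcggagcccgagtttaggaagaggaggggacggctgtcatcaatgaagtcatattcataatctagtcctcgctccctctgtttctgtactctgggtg
Smarcc1 promoter, chr9:110131774-110132053, forward strand: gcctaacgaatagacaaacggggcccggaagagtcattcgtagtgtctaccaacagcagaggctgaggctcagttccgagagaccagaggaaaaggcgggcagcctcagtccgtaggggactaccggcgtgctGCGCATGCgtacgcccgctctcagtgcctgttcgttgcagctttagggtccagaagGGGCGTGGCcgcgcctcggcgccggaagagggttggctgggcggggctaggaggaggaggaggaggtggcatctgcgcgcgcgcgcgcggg
Smarcc2 promoter, chr10:128458986-128459265, forward strand: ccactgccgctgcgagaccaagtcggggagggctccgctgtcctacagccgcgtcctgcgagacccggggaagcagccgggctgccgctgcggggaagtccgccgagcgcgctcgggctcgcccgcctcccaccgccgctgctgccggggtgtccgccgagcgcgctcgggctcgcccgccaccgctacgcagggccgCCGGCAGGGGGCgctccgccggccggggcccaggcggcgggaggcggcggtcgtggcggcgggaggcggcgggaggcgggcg
Smarcb1 promoter, chr10:75921585-75921864, reverse strand: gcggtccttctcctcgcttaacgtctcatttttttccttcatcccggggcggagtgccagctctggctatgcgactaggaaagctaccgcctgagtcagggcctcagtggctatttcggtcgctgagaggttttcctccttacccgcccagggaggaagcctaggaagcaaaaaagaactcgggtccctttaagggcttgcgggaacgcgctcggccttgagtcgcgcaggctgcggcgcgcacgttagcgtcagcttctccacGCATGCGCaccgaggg

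NRF1 is an activator of housekeeping genes with a palindromic site. Of the 11 RefSeq promoters that matched 9 members, 3 held its consensus within 300 bases, and the Smarca4 promoter held it at 2 places, at bases 8 to 15 and 185 to 192. The same letters occurred in 2.71% of all 32841 promoters and in 4.97% of the 15680 whose start lay in a peak. Smarcc1 had the match at bases 134 to 141, and its KLF match at bases 190 to 198. Smarcb1 had the NRF1 match at bases 265 to 272, just inside the transcript. SP (GGGGCGGGG) occurred in the promoters of Brd9 and Smarcd1, and in 21.6% of all promoters in a peak. YY1 (AAGATGGCG) occurred in that of Smarcd1, and in 2.59% of those promoters. For the KLF match at Smarcc1 and the CTCF match at Smarcc2 these shares were 8.93% and 6.10%. The promoters of Smarca2, Arid1a and Dpf2 held none of the 14 motifs searched, which says only that these letters are not in the window.

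All 10 members had a TSS peak. Among 21938 protein-coding genes 70.8% had one, so most genes share this feature. All 10 also had at least 1 distal peak, as did 96.0% of the 15535 protein-coding genes with a TSS peak. This did not hold in other settings, since Smarce1 and Dpf2 had 0 in a window of 20 kb, and Smarca2 had 0 with a TSS limit of 2500 bp or with 1 TSS per gene. The widest TSS peak of every member was at least 1000 bp, against 73.0% of those genes. Its median over members was 1425 bp, beside 1219 bp for protein-coding genes with a TSS peak (quartiles 974.0 and 1484 bp). Of the members 8 lay above that median of all genes, and Dpf2 (1088 bp) and Arid1a (1214 bp) lay below it.

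**Figure D1:**
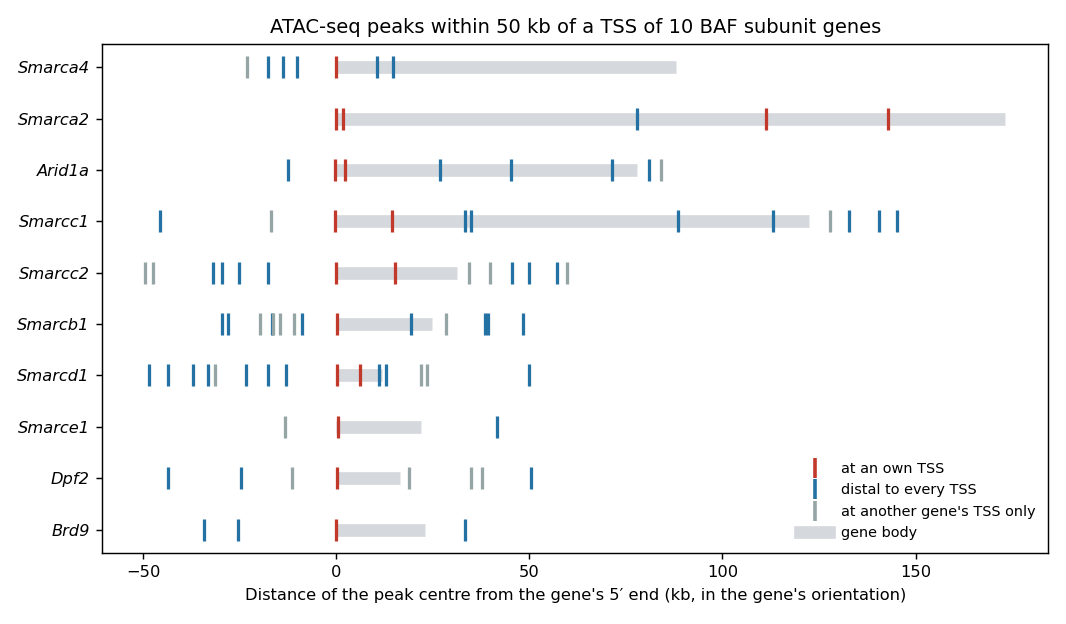
Peaks around each of the 10 genes, drawn at the distance of the peak centre from the gene's 5′ end (x axis, kb, in the direction of transcription), with 1 row per gene and the gene body in pale grey. Red ticks are the 17 TSS peaks, blue ticks the 51 distal peaks and grey ticks the 22 peaks at another gene's TSS only; Smarcd1 has the most blue ticks (10) and Smarca2 and Smarce1 the fewest (1 each).

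Smarca4 encodes BRG1, the ATPase of BAF complexes in ES cells (ENSMUSG00000032187, chr9:21616169-21704230, forward strand). Its single TSS peak was 1462 bp wide (chr9:21615334-21616795), centred 105 bp before the gene's 5′ end, and 26.7% of genes with a TSS peak had one at least as wide. The 5 distal peaks were 691, 293, 239, 237 and 227 bp wide. All 5 lay within 20 kb of the nearest Smarca4 TSS, with a median distance of 10158 bp. Smarca4 and Smarca2 were the members whose distal count was the same (5 and 1) in a window of 20 kb. Of these peaks, 3 lay upstream, between genes, at 10158, 13901 and 17716 bp before the 5′ end. The other 2 lay in intron 1 of the longest coding transcript (34 exons), 10652 and 14670 bp into the gene.

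The upstream peak nearest to Smarca4 is shown because it was the only distal member peak whose 300 bp window held the OCT octamer ATTTGCAT, the part of the composite OCT4::SOX2 site that OCT4 reads. Capitals mark this match, which lies on the reverse strand at bases 220 to 227.
Smarca4 distal peak, chr9:21605865-21606157, forward strand: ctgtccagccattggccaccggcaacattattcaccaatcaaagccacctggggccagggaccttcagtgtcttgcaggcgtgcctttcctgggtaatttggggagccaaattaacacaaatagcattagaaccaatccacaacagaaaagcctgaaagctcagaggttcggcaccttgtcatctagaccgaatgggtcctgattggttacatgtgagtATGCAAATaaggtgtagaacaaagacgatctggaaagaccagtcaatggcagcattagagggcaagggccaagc

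Smarca2 encodes BRM, the alternative ATPase (ENSMUSG00000024921, chr19:26605050-26778322, forward strand). Against the 1 TSS peak and 5 distal peaks of Smarca4, it had 4 TSS peaks and 1 distal peak. Its TSS peaks were 927, 2132, 295 and 807 bp wide. The widest of them was centred 1811 bp into the gene, in intron 1 just after the peak over the 5′ end, and was the widest TSS peak of any member. Only 3.73% of genes with a TSS peak had one at least as wide. The 295 and 807 bp peaks lay 111371 and 142745 bp into the gene, in introns 26 and 27, and the latter held the starts of 3 coding transcripts. Smarca2 has 42 annotated TSSs, the most of any member, of which 7 lay in a peak, whereas protein-coding genes with a TSS peak have a median of 4. The distal peak (304 bp) lay in intron 18, 2026 bp from an internal TSS and 77986 bp from the 5′ end. Smarca2 also had the lowest density of distal peaks among members, 0.38 per 100 kb of window, and 96.0% of genes with a TSS peak were at least as dense. No coding neighbour starts within 50 kb of a Smarca2 TSS.

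The scaffold subunits SMARCC1 and SMARCC2 pair up at the base of the complex. Smarcc1 (ENSMUSG00000032481, chr9:110117708-110240178, forward strand) had 2 TSS peaks, 1388 and 1317 bp wide. The second, 14359 bp into the annotated gene, held the RefSeq start and the starts of 4 coding transcripts. The first held 1 Smarcc1 start and also a start of Dhx30, a helicase gene, and its nearest TSS belonged to Dhx30. The 8 distal peaks of Smarcc1 were 209 to 1018 bp wide, and 4 of them lay inside the gene, in intron 5 (2 peaks), intron 24 and intron 26. Near its 3′ end, 3 lay around Cspg5, the widest of them (1018 bp) in a Cspg5 intron. The density was 3.66 distal peaks per 100 kb.

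Smarcc2 (ENSMUSG00000025369, chr10:128459248-128490482, forward strand) lies in a gene-dense stretch and had 7 distal peaks, or 6.09 per 100 kb. None lay inside Smarcc2. Upstream, 3 lay in introns of Rnf41 and 1 between genes, at 17577 to 31917 bp, and 3 lay 30660 to 42250 bp from the nearest Smarcc2 TSS on the other side. The narrowest distal peak of any member, 168 bp, was among the latter. Its main TSS peak was 1759 bp wide (11.4% of genes at least as wide) and held 5 TSSs of the gene and the microRNA gene Mir8105. The other TSS peak, 870 bp, covered coding exon 13 of 29. A further 5 peaks lay at TSSs of Nabp2, Rnf41, Myl6, Myl6b and Esyt1. Between the scaffold paralogues, the TSS peak was wider at Smarcc2, and distal peaks inside the gene occurred at Smarcc1 and not at Smarcc2. The order of their distal counts depended on the setting, with 8 at Smarcc1 and 7 at Smarcc2 here, 2 and 7 with the starts of basic transcripts only, 3 and 5 with 1 TSS per gene, and 3 and 1 in a window of 20 kb.

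SMARCB1, SMARCD1 and SMARCE1 are core subunits of canonical BAF and PBAF, of which ncBAF is known to lack SMARCB1 and SMARCE1. SMARCB1 touches the acidic patch of the nucleosome, SMARCD1 bridges to transcription factors, and SMARCE1 binds DNA through an HMG box. Smarcb1 (ENSMUSG00000000902, chr10:75896769-75921617, reverse strand) had a TSS peak of 1279 bp and 8 distal peaks of 195 to 1564 bp. The 1564 bp peak, 29651 bp upstream, was the widest distal peak of any member, at the 99.1 percentile of the distal peaks of the whole list. A second wide distal peak (1317 bp) lay 41002 bp downstream. A single distal peak lay inside the gene, in intron 7 (241 bp). Of the others, 3 lay in Mmp11, Gm867 and Vpreb3. Smarcb1 has 6 coding neighbours within 50 kb (Chchd10, Derl3, Gm5134, Gm867, Mmp11, Vpreb3), and 5 more peaks sat at the TSSs of such genes.

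Smarcd1 (ENSMUSG00000023018, chr15:99702129-99713991, forward strand) had the most distal peaks, 10, and the highest density, 9.46 per 100 kb, and 9.40% of genes with a TSS peak were at least as dense. This rank depended on the settings. Smarca4 (5) passed Smarcd1 (4) in a window of 20 kb, and Arid1a (15) passed it (14) in one of 100 kb. At 50 kb Smarcc1 (8) passed it (7) with a TSS limit of 2500 bp, and Smarcb1 equalled it (10) with one of 500 bp. Upstream lay 7 of the 10, from 13120 to 48505 bp, and 3 of these were in introns of Asic1, an acid-sensing ion channel gene. The widest (1229 bp) was one of those 3. Only 1 lay inside Smarcd1, over its last exon. Its TSS peaks were 1299 bp over the 5′ end and 342 bp in intron 9, and the latter held no annotated start. Smarce1 (ENSMUSG00000037935, chr11:99209047-99231017, reverse strand) had a TSS peak of 1485 bp with 4 of its TSSs and a single distal peak of 511 bp, 23942 bp downstream of the nearest own TSS. In a window of 100 kb its distal count was 11, beside 14 at Smarcd1. Within 50 kb its density of 0.85 per 100 kb was reached or passed by 94.2% of genes with a TSS peak. Its 1 coding neighbour there is Krt222.

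Arid1a, Dpf2 and Brd9 distinguish the assemblies. ARID1A is the large DNA-binding subunit of canonical BAF, DPF2 reads acylated histone H3 there, and BRD9 is the bromodomain subunit of ncBAF. Arid1a (ENSMUSG00000007880, chr4:133679008-133756769, reverse strand) had TSS peaks of 1214 bp, over the 5′ end, and 737 bp, 2270 bp into the gene. Its second RefSeq start lay in no peak, just outside the 737 bp one. Of its 5 distal peaks (238 to 815 bp), 3 lay inside the gene, in intron 1 (815 bp), intron 4 (283 bp) and coding exon 18 of 20 (238 bp). The upstream one, 12560 bp before the gene, is shown because it held the consensus TCAAGGTCA of ESRRB, an orphan nuclear receptor of the ES cell network. Repeats make up 41.3% of this peak, and whether the match lies in them was not examined. Capitals mark ESRRB at bases 167 to 175 and TATAAA at bases 290 to 295.
Arid1a distal peak centre, chr4:133769180-133769479, forward strand: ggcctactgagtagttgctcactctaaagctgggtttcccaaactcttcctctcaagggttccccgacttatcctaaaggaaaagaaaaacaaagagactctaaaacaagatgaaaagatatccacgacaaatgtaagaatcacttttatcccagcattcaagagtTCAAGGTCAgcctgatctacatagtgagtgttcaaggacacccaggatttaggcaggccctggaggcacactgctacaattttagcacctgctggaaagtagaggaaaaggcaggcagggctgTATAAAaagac

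Dpf2 (ENSMUSG00000024826, chr19:5896516-5913010, reverse strand) had the narrowest main TSS peak of the 10 members, 1088 bp, holding 6 of its 10 TSSs. Its 3 distal peaks were 216, 537 and 604 bp wide and lay far out, at 39942, 24644 and 43586 bp from the nearest own TSS. Between them and the gene lay 4 peaks at TSSs of other genes (Frmd8, Slc25a45, Tigd3 and Cdc42ep2). Brd9 (ENSMUSG00000057649, chr13:73937811-73960895, forward strand) had a TSS peak of 1721 bp, centred on its 5′ end, with 8 of its 12 TSSs and a start of its neighbour Trip13, a mitotic checkpoint ATPase gene. Its 3 distal peaks were 221, 251 and 1084 bp wide, at 34322, 25450 and 19886 bp. Neither gene held a distal peak within its own body.

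**Figure D2:**
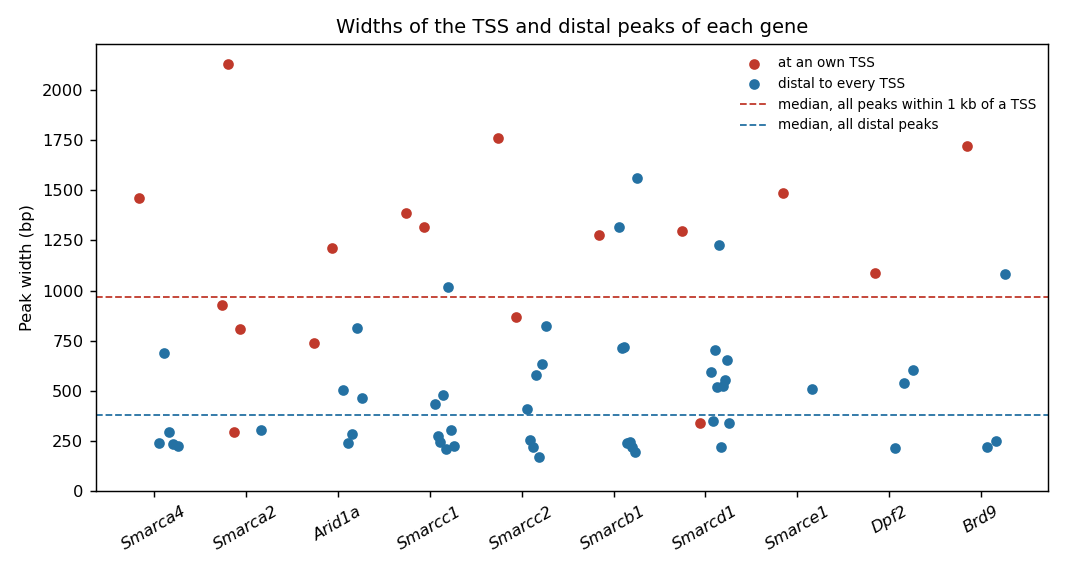
Width in bp (y axis) of each TSS peak (red) and each distal peak (blue) by gene (x axis), with dashed lines at the medians of all peaks of the list within 1 kb of a TSS (970 bp) and of all distal peaks (380 bp). The widest TSS peak of each gene lies above the red line, and 5 distal peaks do too.

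Across the members the number of distal peaks ran from 1 (Smarca2, Smarce1) through 3 (Dpf2, Brd9), 5 (Smarca4, Arid1a), 7 (Smarcc2) and 8 (Smarcc1, Smarcb1) to 10 (Smarcd1). The median of 5 equalled that of protein-coding genes with a TSS peak, whose quartiles were 3 and 8. With basic transcripts only it was 3 against 5.00, and with 1 TSS per gene 3 against 4.00. In the main setting, of the members 4 lay above it, 2 at it and 4 below. Per 100 kb of window the median was 3.67 over members and 4.42 over those genes. The members thus spread over the range of other genes. With no value per sample, the error of such a count is not known, and neighbours in the order differ by 1 to 2 peaks.

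The distal peaks lay in different places in different members. Of the 51, 24 lay upstream, 15 downstream and 12 inside the member's own gene, where all but 1 came from Smarca4, Smarca2, Arid1a, Smarcc1 and Smarcb1. At the peak centre, 23 lay in an intron of any gene, 21 between genes and 7 in an exon. The median distance to the nearest own TSS was 23942 bp (2026 to 48505 bp), with 3 peaks within 5 kb and 9 within 10 kb. For 41 of the 51 the nearest TSS belonged to another gene, so a link to the member rests on the window alone. The peaks that had the member's own TSS as the nearest numbered 10.

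Widths differed between the classes, with overlapping ranges. The 17 TSS peaks had a median of 1279 bp (295 to 2132 bp), and the 51 distal peaks had 410.0 bp (168 to 1564 bp), beside 970 and 380 bp in the whole list. The 970 bp is over peaks near a TSS of any annotated gene, coding or not, whereas all members are coding genes. Of the members' distal peaks, 5 (9.80%) were 1000 bp or wider, against 7.28% of all distal peaks. They belonged to Smarcb1 (2 peaks), Smarcc1, Smarcd1 and Brd9. More than 1 TSS peak occurred in 5 members (Smarca2, Arid1a, Smarcc1, Smarcc2 and Smarcd1), against 25.2% of genes with a TSS peak. The members have a median of 6 annotated TSSs and those genes a median of 4. Whether this bears on the share with more than 1 TSS peak was not tested. Of 103 annotated TSSs of the members 44 lay in a peak (42.7%), against 60.0% for protein-coding genes with a TSS peak. Without Smarca2 it was 37 of 61 (60.7%). Of the 17 TSS peaks, 3 (at Smarca2, Arid1a and Smarcd1) held no annotated TSS of the member.

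Base composition, which the choice of peaks had not used, differed between the same classes. TSS peaks had a median GC content of 61.4% and an observed/expected CpG ratio of 0.74, against 57.0% and 0.58 for all peaks near a TSS of any gene, coding or not. Distal peaks had 49.6% and 0.21, against 47.7% and 0.21 for all distal peaks. The ranges overlapped, from 50.3% to 69.9% GC in TSS peaks and from 36.9% to 61.5% in distal ones. The lowest CpG ratios among TSS peaks were those of the internal peaks of Smarcc2 (0.32) and Smarca2 (0.38). The highest among distal peaks, 0.73, was a peak of 703 bp 37130 bp upstream of Smarcd1.

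**Figure D3:**
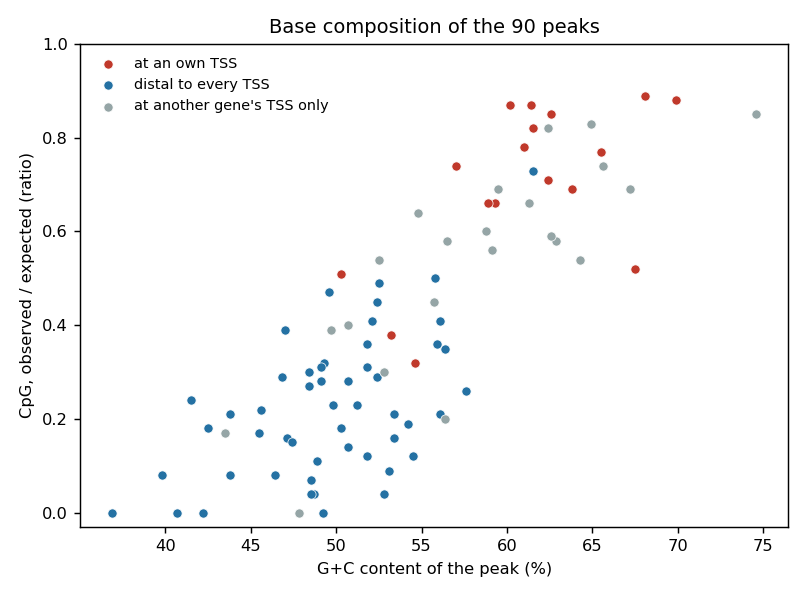
GC content in percent (x axis) against the observed/expected CpG ratio (y axis) for the 90 peaks, 1 point per peak, coloured as in the map of peaks. TSS peaks sit mostly in the upper right (median 61.4% and 0.74) and distal peaks in the lower left (median 49.6% and 0.21).

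CTCF is the factor that anchors chromatin loops. Its consensus, searched with up to 1 mismatch where most other motifs were allowed none, occurred in 16 of 51 windows (31.4%), in 8 of the 10 genes, and in 12.9% of all distal windows of the list. The only match at Arid1a did not lie within its narrow peak of 238 bp. The share depended on the mismatch, since without it 2 of 51 (3.92%) matched, beside 3.80% of all. Both exact matches lay at Smarcd1, 13120 bp upstream in an Asic1 intron and 7251 bp from the nearest own TSS on the downstream side. The second is shown with the match in capitals, at bases 78 to 89.
Smarcd1 distal peak centre, chr15:99714982-99715281, forward strand: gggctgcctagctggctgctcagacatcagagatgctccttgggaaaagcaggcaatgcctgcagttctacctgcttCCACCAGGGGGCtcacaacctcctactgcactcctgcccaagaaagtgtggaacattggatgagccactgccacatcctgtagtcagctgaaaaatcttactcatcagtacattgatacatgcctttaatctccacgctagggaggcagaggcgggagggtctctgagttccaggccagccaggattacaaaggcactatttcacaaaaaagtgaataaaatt

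Of the 16 windows with a CTCF match, 6 held it in bases that the reference marks as repeats (11.8% of distal peaks, against 2.76% of all), and 10 held it elsewhere (19.6%, against 10.2%). In 4 of the 6 the match was the same 12 letters, CCAGAAGAGGGC, which occurred in 1.28% of all distal windows. These 4 lay in intron 1 of Smarca4 (2 peaks) and intron 5 of Smarcc1 (2 peaks), and were 227 to 275 bp wide with 38.9% to 87.3% of their bases in repeats. They are set out below with 24 bases on each side, because they make up all the peaks inside Smarca4 and 2 of the 4 inside Smarcc1. Capitals mark the shared letters.
Smarca4 intron 1, first peak, chr9:21626705-21626764, forward strand: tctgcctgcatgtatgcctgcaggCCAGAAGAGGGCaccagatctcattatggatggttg
Smarca4 intron 1, second peak, chr9:21630809-21630868, forward strand: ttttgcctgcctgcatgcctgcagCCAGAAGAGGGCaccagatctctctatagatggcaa
Smarcc1 intron 5, first peak, chr9:110151099-110151158, forward strand: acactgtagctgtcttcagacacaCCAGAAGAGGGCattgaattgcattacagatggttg
Smarcc1 intron 5, second peak, chr9:110152588-110152647, forward strand: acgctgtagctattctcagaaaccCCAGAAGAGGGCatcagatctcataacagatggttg

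Over the 48 flanking bases, without gaps and without the shared letters, the pair from Smarcc1 was identical at 36, and the other pairs at 16 to 26. In these stretches 80.0% to 100% of bases were marked as repeats. How reads in repeats were placed is not given in the sources used here, and its part in these 4 peaks was not tested.

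Of the motifs of ES cell factors, OCT, ESRRB and KLF occurred at shares near or above those of the whole list and SOX at a lower one, all on counts of 1 to 3 windows. The composite OCT4::SOX2 consensus with up to 2 mismatches occurred in 0 of 51 distal windows, against 0.592% of all distal windows. Taking 3 counts as the approximate limit that a count of 0 allows, which covers counting error only, the share could be up to 5.88%, so a lower share than in the whole list was not detectable with 51 windows. OCT (1 of 51, against 2.05%) and SOX (CCATTGT, 1 of 51 at Smarcb1, against 6.74%) are shorter parts of that site and can overlap it. ESRRB occurred in 2 of 51 (Arid1a and Smarcb1, the latter outside its narrow peak of 246 bp, against 2.14%) and KLF in 3 (Arid1a, Smarcc2, Dpf2, against 4.13%). KLF and SP matches can share bases. These matches describe letters and not binding.

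**Figure D4:**
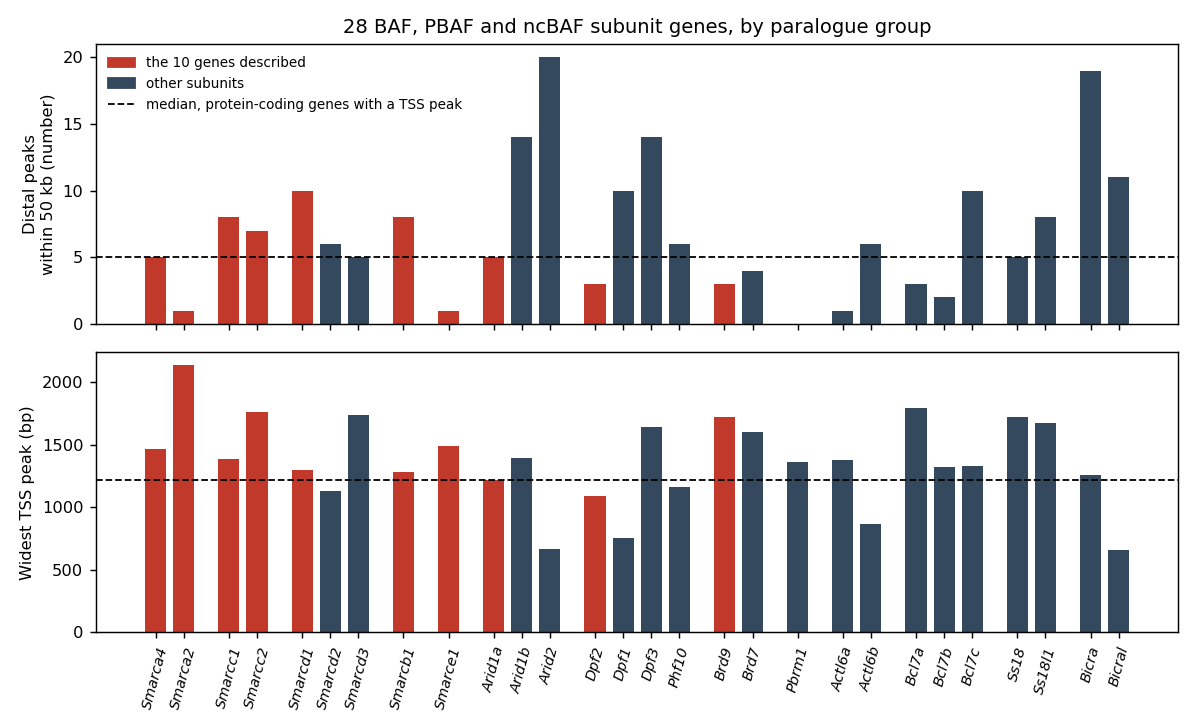
Number of distal peaks (upper panel) and width in bp of the widest TSS peak (lower panel) for 28 subunit genes, grouped by paralogues along the x axis, with the 10 genes described in red, other subunits in dark grey and the medians of protein-coding genes with a TSS peak (5 peaks, 1219 bp) as dashed lines. Arid2 (20) and Bicra (19) have the tallest bars above, and Smarca2 (2132 bp) below.

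The other 18 subunit genes of BAF, PBAF and ncBAF all had a TSS peak too, and had a median of 6 distal peaks, from 0 at Pbrm1 to 20 at Arid2, both subunits of PBAF. Their widest TSS peaks had a median of 1347 bp, and 14 of 18 reached 1000 bp. Those that did not were Bicral (658 bp), Arid2 (664 bp), Dpf1 (751 bp) and Actl6b (864 bp). Of the genes of subunits known from neuronal BAF, Dpf1 and Actl6b were thus below 1000 bp, and Dpf3 (1643 bp) and Ss18l1 (1669 bp) were above it. Set beside their paralogues, Arid1a had 5 distal peaks and Arid1b 14, Dpf2 had 3, Dpf1 10 and Dpf3 14, and Brd9 had 3 and Brd7 4. Smarcd1 went the other way, with 10 against 6 at Smarcd2 and 5 at Smarcd3. Actl6a had 1 and Actl6b 6, and Ss18 had 5 and Ss18l1 8. Bicra had 19 and Bicral 11, and Bcl7a, Bcl7b and Bcl7c had 3, 2 and 10. These are raw counts from windows of different length, such as 111.1 kb at Dpf1 and 293.3 kb at Dpf3. Per 100 kb of window the order of these paralogues turned, with Dpf3 (4.77) below Dpf1 and still above Dpf2 (2.71). The other groups of paralogues listed here kept their order per 100 kb. In width the paralogues did not follow 1 order. Actl6a (1374 bp) was wider than Actl6b, and Dpf2 (1088 bp) lay between Dpf1 and Dpf3. At Smarcd3, known from BAF complexes of heart and muscle, the widest TSS peak was 1738 bp against 1299 bp at Smarcd1. The 8 ATPase genes of other remodelling families all had a TSS peak, with a median of 6 distal peaks and a median widest TSS peak of 1782 bp.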

How the data were processed

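ATAC-seq was performed on 54 samples, and 1 list of merged peaks made from the series was analysed. Per the study's methods, the authors aligned reads with STAR 2.6.1c, removed duplicates with Picard, called peaks with MACS2 2.1.1.20160309 and merged them with BEDTools. The deposited list gives start and end positions in bp on GRCm38, with no score or signal. Whether peaks were called per library or on pooled replicates is not stated. The methods describe removal of regions above 5 kb, of which the list holds 11, none near a member.

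Positions are 1-based. A peak belonged to a gene when its centre lay within 50 kb of any GENCODE M21 TSS of the gene, was a TSS peak within 1000 bp of such a TSS, and distal when over 1000 bp from every TSS. Exon and intron numbers refer to the basic coding transcript with the most exonic bases. Consensus motifs were searched on both strands in 300 bp around peak centres and in RefSeq promoters (250 bases before to 50 after the start), which matched 9 of 10 members. Besides CTCF and OCT4::SOX2, given by name, and those spelled out in the results, the motifs were ETS (CCGGAAGT), NFY (AGCCAAT), CRE (TGACGTCA) and E-box (CACGTG). Lower-case bases of GRCm38.p6 were taken as repeats. All 10 members are named, and other subunits are given by counts with the ends of the range and paralogues named. Members and lists were chosen with earlier results of these data known. The values are descriptions with no test, because none belongs to a sample. The counting and motif steps were tested on simulated data. Python 3.11.15, numpy 2.4.6, pandas 2.3.3 and matplotlib 3.10.9 were used. Alternatives changed the window, the TSS limit, the annotated starts, the peak sizes and the motif settings.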

Additional observations from a re-analysis of the deposited data

How the results depend on the processing

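All 10 members had a TSS peak under each of the 5 alternatives tried for it. Counts changed by over 1.5 times with the window, by construction, and also with the annotated starts and the CTCF mismatch. With 20 kb the 10 members had 50 peaks, 21 of them distal, and a median of 2 distal peaks, and with 100 kb they had 173, 105 and 11. The medians of protein-coding genes with a TSS peak moved alike, to 2 and 10.0. With basic transcripts only the members' median was 3 (other genes 5.00), and with 1 TSS per gene, its 5′ end, chosen after seeing the data, it was 3 (other genes 4.00), so the median of the members lies at or below that of other genes depending on which starts count. Under these 2 settings Smarcc1 went from 8 distal peaks to 2 and 3, Arid1a from 5 to 3 in both, and Smarca2 from 1 to 2 and 0. With a TSS limit of 2500 bp Smarcb1 went from 8 to 4 and Smarca2 from 1 to 0. Median widths of TSS peaks (1246 to 1425 bp) and distal peaks (293 to 412 bp) moved by less than 1 SD over the peaks. That SD (486 and 317 bp) is over single peaks and does not measure the error of a median, so it is a wide limit. With a window of 20 kb the distal median (293 bp) lay below the 380 bp of all distal peaks, not above it. Any of the 6 distal motifs was found in 23 peaks, and in 9 without the CTCF mismatch, also chosen after seeing the data. In all, 26 of 35 values of this kind and 42 of 69 values for single genes or motifs stayed within these limits. Some could not move, such as the count without peaks above 5 kb, as no such peak lies near a member. No paired analysis was possible because no value belongs to a sample. The list holds no counts, so the depth behind a peak is unknown, and a region missing from it may have been open below the caller's threshold.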

Other observations

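Among the 22 peaks at the TSS of another gene only, 1 held both the OCT (ATTTGCAT) and the SOX (CCATTGT) letters in its 300 bp window. Of all 23941 windows near a TSS 1.06% held OCT, 2.96% SOX and 0.0543% both. This 757 bp peak lay at a TSS of Krt222, a keratin-like gene, 13222 bp upstream of Smarce1. The composite OCT4::SOX2 consensus with up to 2 mismatches was not found there. With up to 3 mismatches it was found in 1 of the 51 distal peaks (1.96%), against 4.16% of all distal windows. Krt222 was picked with its values in view.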
